A study of Sus scrofa with 6 samples.

Results

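CRABP2, ALDH1A1 and RBP4 act at different points of the path that brings vitamin A into a cell and turns it into the signal retinoic acid. They were described in 6 clones of pig (Sus scrofa) keratinocytes, 3 from cornea and 3 from conjunctiva, as all probe sets on the porcine array whose only gene symbol in the array's annotation table is 1 of these 3. This gave 5 probe sets of the 23999 measured (1 for CRABP2, 2 for ALDH1A1 and 2 for RBP4), and each gene was represented by its probe set with the highest mean over the 6 arrays. The 3 genes were selected on their levels and tissue differences in these same arrays. Those values are therefore given as a description, without a test.

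The corneal group was grown from biopsies of central cornea, taken 6 mm from the limbus, and the conjunctival group from biopsies of conjunctiva, all from white domestic pigs. The labels give neither their age nor a treatment, while the instrument files of the arrays carry a project name that speaks of irradiation over time. The labels name 2 animals without saying which clone came from which, so at least 2 of the 3 clones of a tissue shared an animal. Every clone grew from a hand-picked single cell on a feeder layer of irradiated mouse fibroblasts, the 3T3-J2 line, in a supplemented medium whose retinoid content is not stated in the labels. Values are log2 robust multi-array average (RMA) levels, 1 array per clone, on which a difference of 1 is a 2-fold difference.

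Retinol travels in blood on RBP4, enters cells and is kept as esters, or is oxidised by dehydrogenases to retinal. Aldehyde dehydrogenases such as ALDH1A1 oxidise retinal to retinoic acid, CRABP2 carries retinoic acid to its nuclear receptors, FABP5 can carry it to another receptor, and CYP26 enzymes break it down. In surface epithelia of the eye, vitamin A is known for maintaining the mucosal state, and its lack leads to keratinisation. ALDH1A1 is also known as an abundant soluble protein of the cornea in several mammals.

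CRABP2 was higher in all conjunctival clones than in any corneal clone, but by an amount that differed widely among the conjunctival clones. Its log2 levels were 9.44, 9.64 and 9.38 in corneal clones 1, 2 and 3. They were 11.88, 11.48 and 9.88 in conjunctival clones 1, 2 and 3. The corneal clones lay within 0.26 of each other, conjunctival clones 1 and 2 stood well above them, and conjunctival clone 3 lay closer to the corneal values than to the other conjunctival clones. The tissue means were 9.49 ± 0.14 in cornea and 11.08 ± 1.06 in conjunctiva (SD, n = 3), a difference of 1.59 (SE 0.62) or 3.01-fold.

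The tissues did not overlap for CRABP2, as for 7.28% of all probe sets, 3.44% being higher in conjunctiva. The tissue means lay at least 2-fold apart for 0.488% of probe sets. Only 0.129% of probe sets had a larger absolute difference than CRABP2. These shares place the gene and are no support for it, since it was chosen on this contrast. The difference was 2.19 without conjunctival clone 3 and 1.19 without conjunctival clone 1. The arrays ran on 2 fluidics stations, and the difference was 1.24 within station 1, with corneal clone 1 as the lone corneal array, and 2.36 within station 2, with conjunctival clone 1 as the lone conjunctival array.

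**Figure D1:**
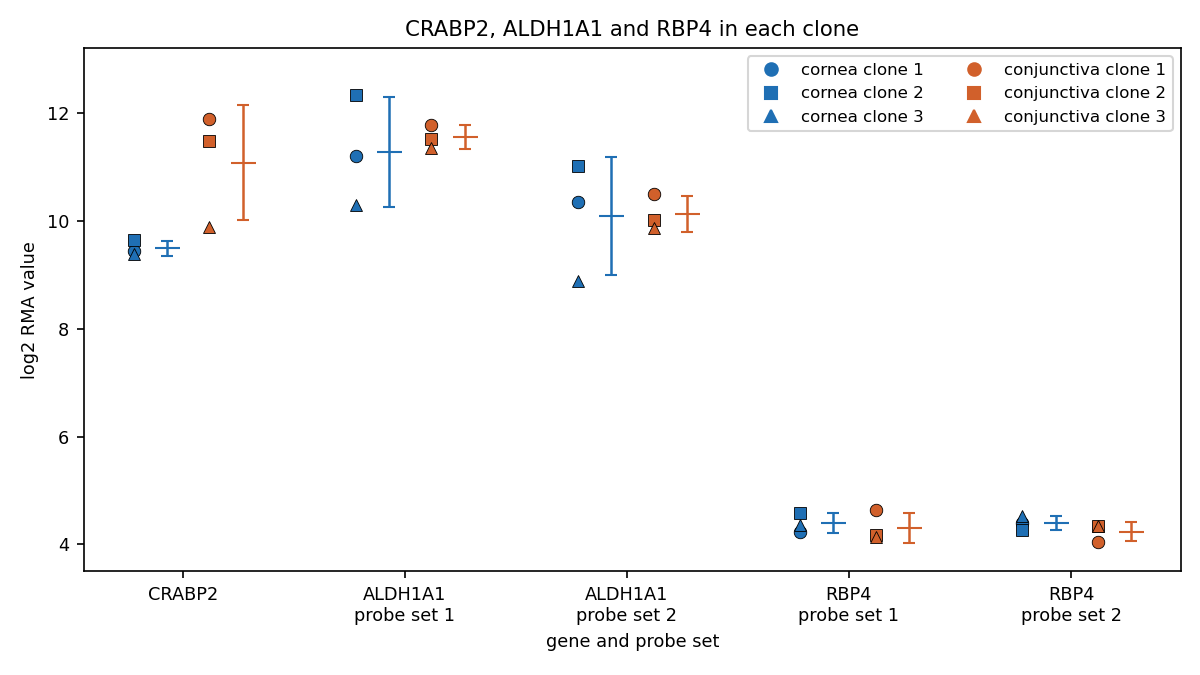
Log2 RMA value (vertical axis) of each of the 5 probe sets of CRABP2, ALDH1A1 and RBP4 in each clone. Points are clones, coloured by tissue and shaped by clone number, and bars are the tissue mean ± SD (n = 3); CRABP2 is tight in cornea (9.38 to 9.64) and spread in conjunctiva (9.88 to 11.88), while ALDH1A1 probe set 1 is spread in cornea (10.29 to 12.33) and tight in conjunctiva (11.35 to 11.77).

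ALDH1A1 was bright in every clone and overlapped between the tissues, and here the corneal clones were the ones that differed among themselves. Its brighter probe set read 11.20, 12.33 and 10.29 in corneal clones 1, 2 and 3. It read 11.77, 11.52 and 11.35 in conjunctival clones 1, 2 and 3. Corneal clone 2 was the highest of the 6 and corneal clone 3 the lowest, with the conjunctival clones between them. The means were 11.27 ± 1.02 in cornea and 11.55 ± 0.22 in conjunctiva (SD, n = 3), a difference of 0.27 (SE 0.60) that was smaller than the spread between corneal clones and turned to -0.22 without corneal clone 3. Within station 1 it was 0.23 and within station 2 it was 0.46.

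The second ALDH1A1 probe set gave the same extremes. It read 10.35, 11.01 and 8.89 in corneal clones 1, 2 and 3, and 10.49, 10.02 and 9.87 in conjunctival clones 1, 2 and 3. Its means were 10.09 ± 1.09 and 10.13 ± 0.33 (SD, n = 3), a difference of 0.04 (SE 0.65), which was -0.41 within station 1 and 0.54 within station 2. Across the 6 arrays, which share 2 animals, both probe sets correlated at r = 0.94 (Spearman's rho 0.83), and at 0.37 without corneal clones 2 and 3, on which the relation rests.

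CRABP2 and ALDH1A1 each varied more over the 6 clones than nearly all other probe sets. The gap between the highest and lowest clone was 2.49 for CRABP2 and 2.04 and 2.12 for the ALDH1A1 probe sets, gaps exceeded by 1%, 1.83% and 1.56% of probe sets. The clones that made this gap were not the same. For CRABP2 the range was 0.26 within cornea and 2.00 within conjunctiva. For the brighter ALDH1A1 probe set it was 2.04 within cornea and 0.43 within conjunctiva. Whether the spread of either gene differs between the tissues was not tested. The shares of probe sets with a wider gap are a description, since both genes were selected on their levels and tissue differences in these arrays. They compare bright genes with mostly dimmer probe sets. Only 1.94% of probe sets had a higher mean than CRABP2, and 0.871% and 2.21% than the ALDH1A1 probe sets. As a description over 6 arrays, CRABP2 and ALDH1A1 correlated at r = 0.36 (rho 0.66).

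RBP4, the blood carrier of retinol that the liver makes in bulk, was dim in all clones, and its level lay near the median of the arrays, 4.40 to 4.478. Its brighter probe set read 4.24, 4.59 and 4.36 in corneal clones 1, 2 and 3. It read 4.63, 4.18 and 4.13 in conjunctival clones 1, 2 and 3. The tissues overlapped, with the highest and the lowest value both in conjunctiva. The means were 4.40 ± 0.18 and 4.31 ± 0.28 (SD, n = 3), and the difference of -0.09 (SE 0.19) changed sign with the station as a block (0.03) and within station 2 (0.16, and -0.09 within station 1).

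The other RBP4 probe set differed by -0.16 (SE 0.13), with 4.40 ± 0.13 in cornea and 4.24 ± 0.18 in conjunctiva. Conjunctival clone 1, the highest clone on the first probe set, was the lowest on this one at 4.04. Both probe sets correlated at r = -0.63 (rho -0.49) over the 6 arrays. The order of clones for RBP4 therefore depends on the probe set. The mean of the first was exceeded by 51.7% of probe sets, and whether RBP4 was above background in these clones was not tested.

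The same clone numbers occur in both tissues, and same-numbered clones deviated together over all probe sets. Within clone numbers 1, 2 and 3, conjunctiva minus cornea was 2.44, 1.84 and 0.49 for CRABP2. As the tissues did not overlap for CRABP2, any pairing of its clones gives a positive sign. For the brighter ALDH1A1 probe set these differences were 0.57, -0.81 and 1.05. For the brighter RBP4 probe set they were 0.39, -0.42 and -0.23. Blocking on the clone number left the differences of tissue means as given, since each number occurs once per tissue.

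The rest of the retinoid path was read from a list of 94 other genes, of which 44 could be named on the array. None of the 44 passed adjusted p 0.05 by limma over all probe sets (smallest adjusted p = 0.9999), where 0% of all probe sets passed, 0 of 23999. At an unadjusted p under 0.05 there were 2 of the 44 (KRT10 and DHRS4) and 2.7% of all probe sets. By differences, 14 of the 44 were higher and 30 lower in conjunctiva, with a median of -0.11, while the 6765 genes on the array split into 3622 higher and 3143 lower ones (median 0.01). Without overlap between the tissues were 5 of the 44, 11.4%, against 6.71% of all genes (7.28% of all probe sets). At least 2-fold apart were 3 (KRT1, KRT8 and MUC4), 6.82%, against 0.887% of all genes. All 3 were listed as genes known to rise or fall with retinoic acid, not as genes that transport, convert, bind or sense retinoids. The list was drawn up with earlier results of these data known, so these shares are a description and no evidence about the path. The counts include 19 genes whose mean lay below the median of all values, and 6 of the 13 genes with several probe sets had another of opposite sign.

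**Figure D2:**
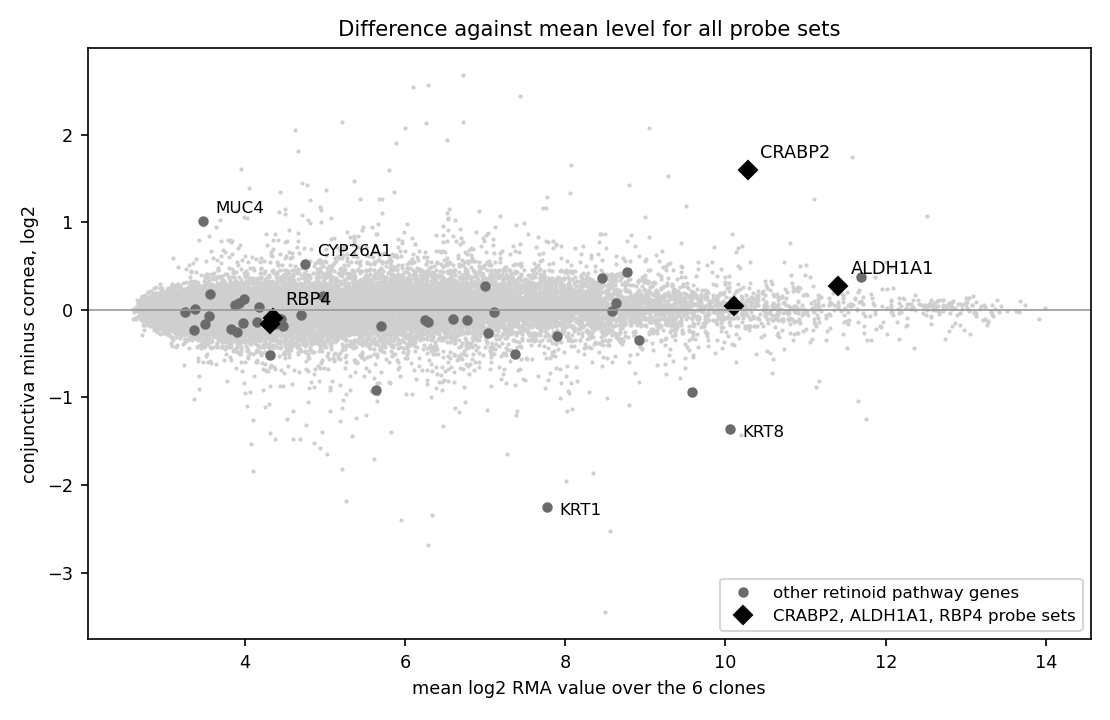
Conjunctiva minus cornea (vertical axis, log2) against the mean log2 RMA value over the 6 clones (horizontal axis) for all 23999 probe sets in light grey. Dark grey circles are the 44 other retinoid genes and black diamonds the 5 probe sets of CRABP2, ALDH1A1 and RBP4; CRABP2 stands at 1.59 among bright probe sets, and ALDH1A1 and RBP4 lie near 0.

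Among genes of retinol transport, 3 of 5 were measured. SCARB1, a lipoprotein receptor that takes up carotenoids, was at 7.14 ± 0.11 in conjunctiva against 6.87 ± 0.11 for the cornea, without overlap, and its difference of 0.27 (SE 0.09) was not past the test (limma adjusted p = 0.9999). TTR, the plasma partner of RBP4, differed by 0.08 and the endocytic receptor gene LRP2 by 0.01, both at means under 4. The retinol receptor gene STRA6 was not analysed here. Among retinol binding and ester storage genes 9 of 13 were measured, 2 higher and 7 lower, with a median of -0.10. The intestinal retinol binding protein gene RBP2 differed by -0.52 (SE 0.30), the lipase gene PNPLA4 by -0.23 (SE 0.11) and RBP7 by 0.18 (SE 0.10), all below the median of all values, 4.44. CES1, a carboxylesterase gene, was equal between the tissues on average (-0.01) but ran from 7.12 in corneal clone 3 to 10.00 in corneal clone 1. The carotene-cleaving enzyme gene BCO2 differed by -0.22 (SE 0.14).

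Of the enzymes that interconvert retinol and retinal, 5 of 20 were measured, with 3 lower and 2 higher conjunctival means and a median of -0.30. DHRS4, a short-chain reductase, read 6.20, 6.59 and 5.50 in corneal clones 1, 2 and 3, and 5.68, 5.37 and 4.48 in conjunctival clones 1, 2 and 3. The highest conjunctival clone lay above the lowest corneal one, so the groups overlapped at that edge. The difference of -0.92 (SE 0.48) was not past the test (limma adjusted p = 0.9999). It was -0.57 without conjunctival clone 3, -1.28 within station 1 and -0.36 within station 2. RDH11, a retinal reductase, differed by -0.35 (SE 0.40) and DHRS7 by -0.30 (SE 0.30). RDH14 and the alcohol dehydrogenase gene ADH5 differed by 0.16 and 0.08. Of the genes for retinoic acid synthesis, ALDH1A1 was the member measured, and ALDH1A2 and ALDH1A3 were not analysed here.

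FABP5, the other measured carrier of retinoic acid, overlapped between the tissues. It read 12.30, 11.96 and 10.24 in corneal clones 1, 2 and 3, and 12.10, 12.11 and 11.42 in conjunctival clones 1, 2 and 3. Clone 3 was the lowest in both tissues, and corneal clone 1 was the highest of all. The means were 11.50 ± 1.10 in cornea and 11.88 ± 0.40 in conjunctiva (SD, n = 3), a difference of 0.38 (SE 0.68, limma adjusted p = 0.9999) that was -0.25 without corneal clone 3. Its second probe set had the same sign, and both correlated at r = 0.98 (rho 0.94) over the 6 arrays.

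The balance of both carriers within an array, CRABP2 minus FABP5 centred on its mean over the 6 arrays, was -1.46, -0.91 and 0.55 in corneal clones 1, 2 and 3. In conjunctival clones 1, 2 and 3 it was 1.18, 0.77 and -0.13. Clones 1 and 2 separated by tissue on this measure and the clones numbered 3 had the opposite order. The difference of means was 1.21 (SE 0.71), with -0.61 ± 1.04 in cornea and 0.61 ± 0.67 in conjunctiva (SD, n = 3).

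CYP26A1, the enzyme that clears retinoic acid and is itself switched on by it, was dim in 5 clones and bright in conjunctival clone 2. It read 4.36, 4.55 and 4.55 in corneal clones 1, 2 and 3, and 3.93, 7.02 and 4.07 in conjunctival clones 1, 2 and 3. Outside conjunctival clone 2 the conjunctival values lay below the corneal ones. The tissue difference of 0.52 (SE 1.01, limma adjusted p = 0.9999) turned to -0.49 without that clone. CYP26A1 had its lowest value in conjunctival clone 1, the clone with the highest CRABP2.

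The nuclear receptors, dim apart from PPARD, differed little between the tissues. Of 7 listed, 6 were measured, 5 lower and 1 higher in conjunctiva, with differences from -0.18 to 0.03. RXRA differed by -0.18 (SE 0.15), RARB by -0.15 (SE 0.19) and RARA by -0.11 (SE 0.09). PPARD, the receptor served by FABP5, read 6.66 ± 0.14 in corneal and 6.55 ± 0.20 in conjunctival clones (SD, n = 3). RARG, the main retinoic acid receptor of epidermis, was not analysed here. The cofactor genes NCOA2, NCOA1, NCOR1 and MED1 differed by -0.18, -0.14, -0.02 and -0.02.

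**Figure D3:**
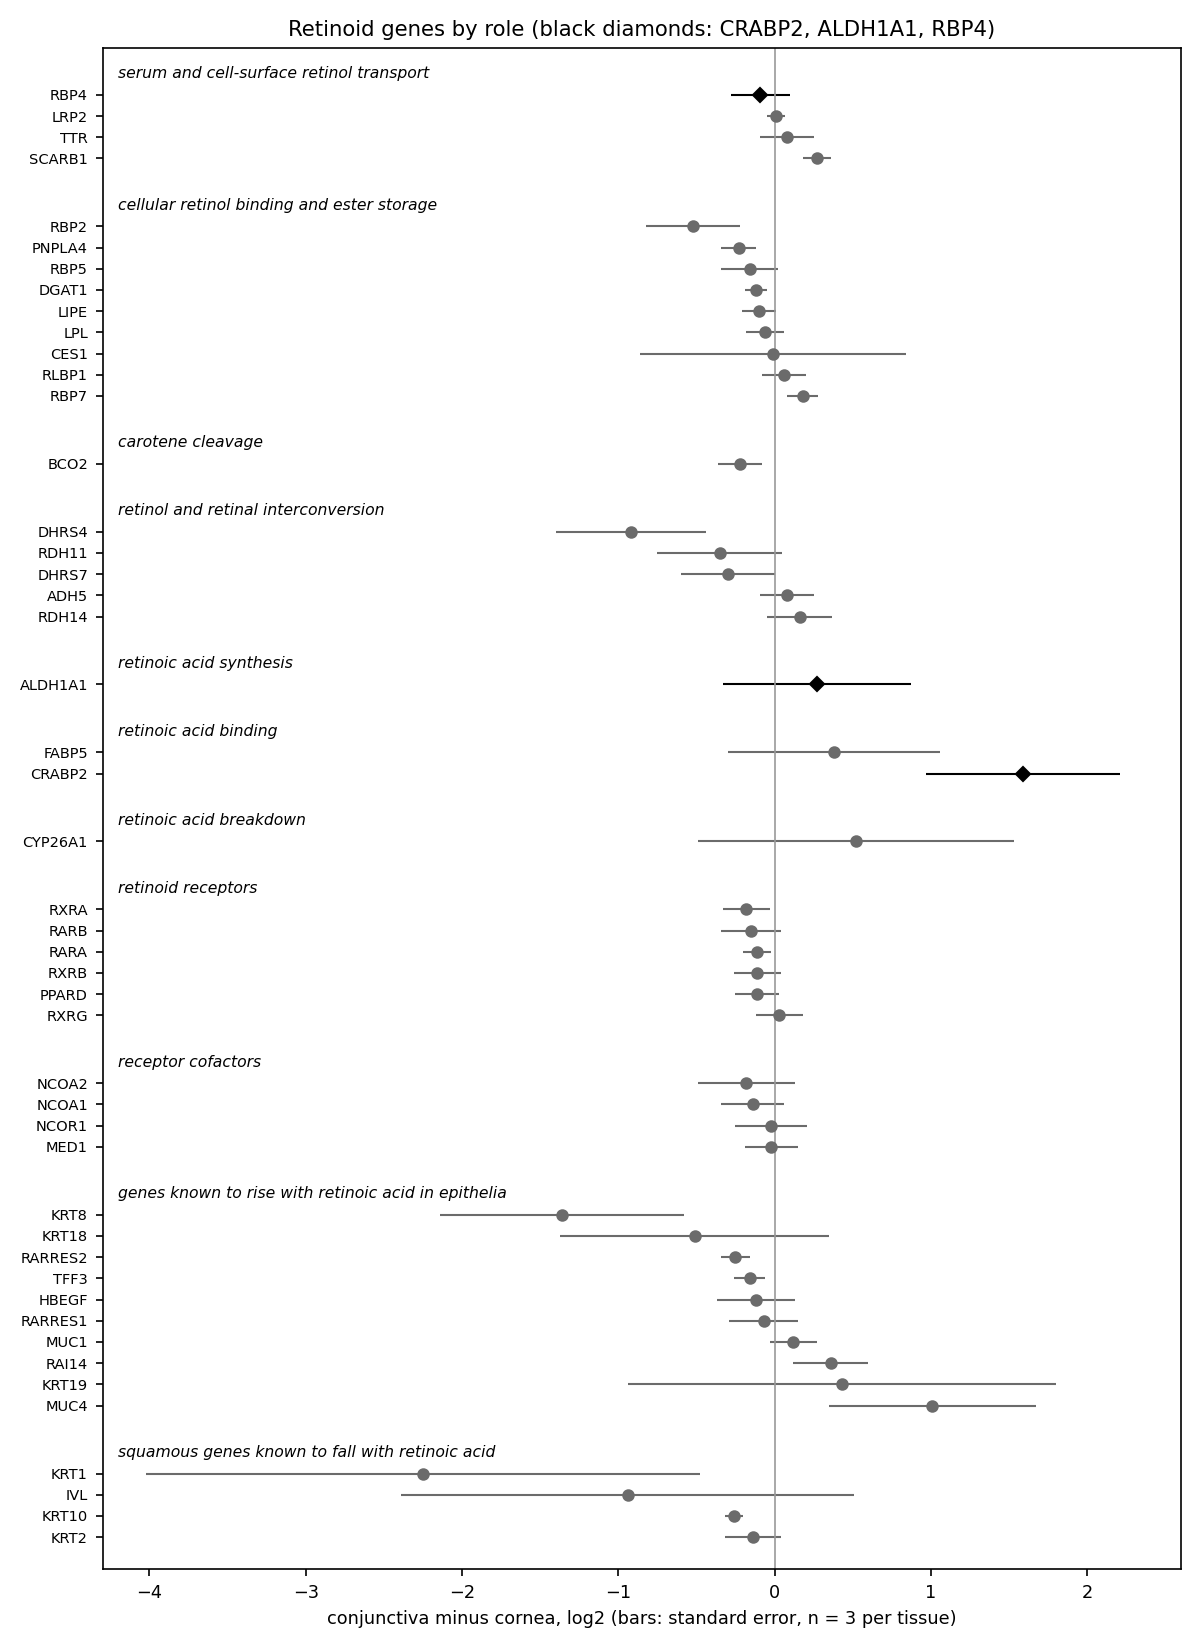
Conjunctiva minus cornea (horizontal axis, log2) for CRABP2, ALDH1A1, RBP4 (black diamonds) and the 44 other measured retinoid genes (grey circles), grouped by role. Bars are standard errors from 3 clones per tissue; the receptors lie between -0.18 and 0.03, while CRABP2 (1.59), MUC4 (1.01), KRT8 (-1.36) and KRT1 (-2.25) lie farthest from 0.

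Genes known to rise with retinoic acid in epithelia had no common direction between the tissues. Of 20 listed, 12 were measured, 5 higher and 7 lower, with a median of -0.10 and none past adjusted p 0.05. The membrane mucin gene MUC4 read 2.93, 2.96 and 3.02 in corneal clones 1, 2 and 3, and 3.44, 5.29 and 3.21 in conjunctival clones 1, 2 and 3. The groups did not overlap, but most of the difference of 1.01 (SE 0.66) came with conjunctival clone 2, without which it was 0.35. RAI14, named for its induction by retinoic acid, read 8.32, 8.25 and 8.29 in cornea, and 8.40, 9.13 and 8.39 in conjunctiva. It too was without overlap, and its difference of 0.36 (SE 0.24) was 0.11 without conjunctival clone 2. RARRES2, also known as a retinoic acid-induced gene, was without overlap in the other direction, at 3.77 ± 0.05 in conjunctival and 4.03 ± 0.14 in corneal clones (difference -0.25, SE 0.09). These were 3 of the 12 genes, where 6.71% of all genes did not overlap. RARRES2 read below the median of all values, 4.44, in every clone, and MUC4 in every clone but conjunctival clone 2.

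The simple-epithelium keratins gave another order. KRT8 read 10.87, 10.94 and 10.40 in corneal clones 1, 2 and 3, and 8.20, 10.80 and 9.14 in conjunctival clones 1, 2 and 3. Its partner KRT18 read 7.74, 7.58 and 7.54 in cornea and 5.64, 8.61 and 7.09 in conjunctiva. On these probe sets both were lowest in conjunctival clone 1, the clone with the highest CRABP2. The second KRT8 probe set read 7.44, 8.75 and 9.48 in cornea and 7.68, 9.36 and 6.20 in conjunctiva, so that its lowest clone was conjunctival clone 3. The differences were -1.36 (SE 0.78) for KRT8 and -0.51 (SE 0.86) for KRT18, which was 0.23 without conjunctival clone 1. KRT19 differed by 0.43 (SE 1.37), from 7.01 in corneal clone 1 to 10.44 in conjunctival clone 2. Its sign turned without corneal clone 1 (-0.34) or conjunctival clone 2 (-0.30), and it was 2.89 within station 1 and -2.17 within station 2.

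Squamous genes known to fall with retinoic acid were all lower on average in conjunctiva, 4 of 4 measured of 13 listed. Of all genes, 46.5% were lower there. The 4 had a median of -0.60 and none passed adjusted p 0.05. KRT2 was dim, at 3.80 to 4.43, and differed by -0.14. KRT10, a keratin of differentiating epidermis, was without overlap at 6.91 ± 0.03 in conjunctival and 7.17 ± 0.11 in corneal clones. Its difference was -0.26 (SE 0.06, limma adjusted p = 0.9999). Its partner KRT1 read 8.76, 11.05 and 6.88 in corneal clones 1, 2 and 3, and 9.02, 4.57 and 6.34 in conjunctival clones 1, 2 and 3. IVL, which encodes involucrin of the cornified envelope, read 10.80, 10.85 and 8.49 in cornea and 11.40, 7.22 and 8.69 in conjunctiva. Both genes were lowest in conjunctival clone 2 and high in conjunctival clone 1. The differences were -2.25 (SE 1.77) for KRT1 and -0.94 (SE 1.45) for IVL, and IVL gave 0.00 without conjunctival clone 2. Within station 2 these were 0.06 and 1.73, and within station 1 they were -3.31 and -2.85.

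Conjunctival clones 1 and 2, the clones with high CRABP2, held opposite extremes of CYP26A1, KRT18 and IVL. Of the 12 measured genes known to rise with retinoic acid, 6 had their highest value in conjunctival clone 2 and 6 their lowest in conjunctival clone 1. Of those lowest in conjunctival clone 1, CYP26A1, RARRES1, RARRES2 and TFF3 read below the median of all values, 4.44, in that clone. Only KRT8 (8.20) and KRT18 (5.64) read above it there. The array of conjunctival clone 1 also had the lowest median, 4.40. Whether a lowest value at such dim levels reflects the gene was not tested. Of all 6765 genes, 1197 were highest in conjunctival clone 2 and 1163 lowest in conjunctival clone 1. Genes of marker lists were often lowest in conjunctival clone 1 too, though not in every list. The counts were 5 of 6 melanocyte, 3 of 3 goblet, 3 of 6 endothelial and 4 of 8 leukocyte genes. They were 4 of 12 for fibroblast and keratocyte genes and 0 of 9 for keratinocyte genes. TFF3 is in both the goblet list and the 12 genes. Of the 4 squamous genes, 2 had their lowest value in conjunctival clone 2, as did 1004 of all 6765 genes. These counts were made after the values had been seen, and all genes of a clone were read on the same array.

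**Figure D4:**
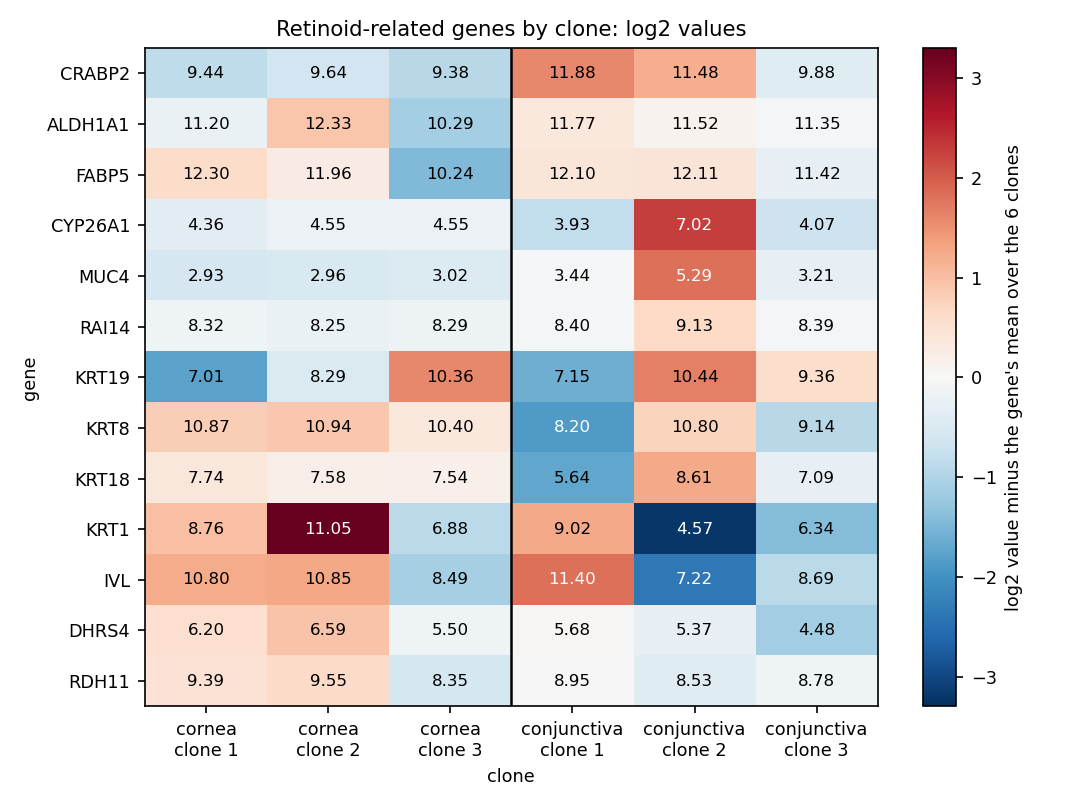
Log2 RMA values (numbers) of 13 retinoid-related genes (rows) in the 6 clones (columns), coloured by the value minus the gene's mean over the 6 clones. CRABP2 is high in conjunctival clones 1 (11.88) and 2 (11.48), whereas CYP26A1 (7.02) and MUC4 (5.29) are high in conjunctival clone 2 and KRT1 (4.57) and IVL (7.22) are low there.

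The genes whose levels followed CRABP2 most closely over the 6 arrays, among 1233 genes with a mean of at least 6 and an SD of at least 0.3, were MBP, SDE2, NOL6, TIMP1 and CCNY (Pearson r from 0.920 to 0.941). TIMP1, an inhibitor of matrix metalloproteinases, read 9.43, 9.63 and 9.61 in corneal clones and 10.15, 10.41 and 9.76 in conjunctival clones. Like CRABP2 it did not overlap between the tissues, as did 6.71% of all genes not. Its choice for likeness to CRABP2 favours this. Without conjunctival clones 1 and 2 the correlation was 0.79 for TIMP1 and between -0.41 and 0.23 for the others, so these 4 rest on those clones. The genes most like the brighter ALDH1A1 probe set were HIPK1, MARCH2, GPR183, SH3GLB1 and SLK (r from 0.947 to 0.952). The kinase gene SLK put the 6 clones in the same order as that probe set (rho 1.00). Without corneal clones 2 and 3 SLK had r = 0.99, where SH3GLB1, HIPK1, MARCH2 and GPR183 had 1.00, 0.83, 0.70 and 0.29. The genes most like the brighter RBP4 probe set were PAPOLA, UBE2E2, RAB32, ANKRD9 and PAPSS2 (r from 0.873 to 0.950, and from 0.16 for RAB32 to 0.86 for PAPOLA without corneal clone 2 and conjunctival clone 1). These correlations are a description over 6 arrays that share their processing and 2 animals.

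The clones carried epithelial markers, as far as these were measured. Of 24 keratinocyte markers 9 were measured. The desmosomal gene DSP, the cadherin gene CDH1, PERP and SFN read at least 10.58 in every clone. EPCAM (8.22 to 9.61), JUP (7.47 to 8.80) and COL17A1 (6.13 to 9.62) lay lower. ITGA6 (3.39 to 3.90) and CDH3 (4.40 to 5.51) were dim. The p63 gene TP63 and the basal keratins KRT5 and KRT14 were not analysed here. Of the 9, 8 were lower on average in conjunctiva, against 46.5% of all genes. COL17A1 differed by -1.20 (SE 0.90, limma adjusted p = 0.9999), and by -0.38 without corneal clone 1. As a mean over the 9, corneal clones lay between 8.92 and 9.62 and conjunctival clones between 9.00 and 9.18. Fibroblast and keratocyte markers, 12 of 16 measured, had list means of 5.91 to 6.14 in cornea and 5.83 to 6.19 in conjunctiva. Among them LUM, POSTN, COL6A3 and COL3A1 were dim in all clones (2.82 to 4.38), and PRRX1 ran from 4.06 to 4.96. COL5A1 (5.36 to 6.72), COL1A2 (6.40 to 7.81) and PDGFRB (6.47 to 6.91) were above the median of all values in every clone. So were FBLN1 (4.86 to 5.58), VIM (10.60 to 11.85), DCN (5.61 to 8.48) and THY1 (9.66 to 12.24). DCN and THY1 were highest in conjunctival clone 2. Melanocyte markers read 4.03 to 4.37 as list means, goblet markers 4.32 to 4.67, endothelial markers 4.36 to 4.66 and leukocyte markers 4.44 to 4.90. In the last 2 lists single members were brighter, namely PECAM1 (7.11 to 8.22, difference 0.56), LAPTM5 (6.98 to 8.71, highest in conjunctival clone 2) and AIF1 (6.33 to 8.45). The part of other cell types in the values of CRABP2 or of conjunctival clone 2 was not tested. Nor was the part of the mouse feeder cells in the fibroblast marker values. In a whole-clone RNA sample, fewer cells of a type and less RNA per cell cannot be told apart.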

How the data were processed

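Total RNA of 6 clones was hybridised to Affymetrix porcine arrays. The deposited log2 values were made by the authors with RMA, per the submitters' processing notes. The version of RMA and the set of arrays it was run on are not given in the sources used here. RMA includes quantile normalisation, so a global change in RNA per cell cannot be seen. The fluidics station came from the instrument's run files, per the file headers. Here 124 control probe sets were left out, no filter on low values was used, and genes were named from the annotation table of the array (10069 probe sets with 1 symbol, 198 with several, 13732 with none; gene IDs of 9961 matched RefSeq genes of Sscrofa11.1). Coordinates are left out, as the files name no genome build.

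Conjunctiva minus cornea was fitted across all 23999 probe sets by lmFit and eBayes of limma 3.58.1 (R 4.3.3), two-sided, with Benjamini-Hochberg adjustment and a threshold of 0.05, and the script was tested on simulated data. Every standard error given comes from the clones' own spread, also where a limma p stands beside it. The limma p rests on limma's own standard error instead. The 3 genes, the gene lists and the tests were chosen with earlier results of these data known. Named were all probe sets of the 3 genes, any measured genes of the retinoid lists (at least the up to 3 largest differences per role), and the 5 genes most correlated with each of the 3. The deviations of same-numbered clones from their tissue means correlated at r = 0.354, 0.169 and 0.349 over probe sets, so a fit with the clone number as a block was also run, although the meaning of a shared number is not in the labels. The p-values measure only the spread between these samples, and the number of arrays limits precision.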

Additional observations from a re-analysis of the deposited data

How the results depend on the processing

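The fits within a station were added after seeing the data. No retinoid gene passed in any of the 16 alternatives, among them the clone number as a replicate block (0 of 44; over all probe sets also 0, with 1204 at an unadjusted p under 0.05 against 648 without it). The number of probe sets past the threshold was 0 except with limma's trend and robust options (2) and with 1 probe set per gene (1), and stayed 0 without each clone (range 0 to 0). The CRABP2 difference kept its sign in all 12 alternatives. As the tissues did not overlap for this gene, leaving out a clone or splitting by station could not change that sign. The difference ran from 1.19 to 2.19 without each clone, with 2.36 within station 2. With the paired fit it was 1.59. The ALDH1A1 difference ran from -0.22 (without corneal clone 3) to 0.80, and the RBP4 difference from -0.25 to 0.01 (without corneal clone 2 or conjunctival clone 3), with 0.03 with the station as a block and 0.16 within station 2; the cause was not tested. The median of the retinoid genes stayed below 0 in 16 of 16 alternatives (-0.136 to -0.072). With only probe sets whose mean lay at or above the median, it covered 25 of the 44 genes. Array median centring moved the higher and lower counts from 14 and 30 to 17 and 27. Background correction and filtering at the probe level could not be varied from summarised values.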

Other observations

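Among the 44 other retinoid genes, 10 spanned at least 2 log2 units between the highest and lowest clone, 22.7%, against 2.96% of all 6765 genes. They were CES1, DHRS4, FABP5, CYP26A1, KRT19, KRT8, KRT18, MUC4, KRT1 and IVL. None of them passed the comparison of tissues. Since the list was drawn up with earlier results of these data known, this share is a description of the clones and no evidence about the path as a whole.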
